A study of Mus musculus with 12 samples.

Results

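The nuclear-encoded genes of the mitochondrial respiratory chain and ATP synthase were followed in cultured mouse macrophages of 2 genotypes, with and without bacterial lipopolysaccharide (LPS). Members were the genes whose symbol starts with Nduf, Uqcr, Cox4i, Cox5, Cox6, Cox7, Cox8 or Atp5, together with Sdha, Sdhb, Sdhc, Sdhd and Cyc1, as given by a curated (NM) RefSeq transcript and with pseudogenes left out. The rule gave 94 of the 24445 genes in the tables: 36 subunits of complex I, 8 complex I assembly factors, 4 genes of complex II, 9 of complex III, 20 of complex IV and 17 of ATP synthase. No measured value entered the list of genes, but it was chosen with earlier results of these data known. The transcript that stands for each gene was the one with the most counts. Counts were high enough for testing in 84 of the 94, and counts of tested members refer to those 84.

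Bone marrow of C57BL/6 mice was cultured for 7 to 8 days in medium with 15% L929-conditioned medium, a source of M-CSF, which gives bone marrow-derived macrophages. Mice were labelled wild type (WT) or knockout (KO) for the histone methyltransferase DOT1L in myeloid cells, and the strain label names Lyz2, a gene of myeloid cells. LPS-treated cells received 10 ng/mL of Escherichia coli O111:B4 LPS for 3 hours and the other cells were left untreated. Each of the 4 groups, WT and KO with and without LPS, held 3 libraries of polyadenylated RNA, which the labels call biological replicates, without saying whether equal numbers come from the same mouse.

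The respiratory chain passes electrons from NADH and succinate to oxygen and pumps protons across the inner mitochondrial membrane. Complex I takes electrons from NADH and complex II from succinate, complex III hands them to cytochrome c, complex IV reduces oxygen, and ATP synthase uses the proton gradient to make ATP. Most subunits are encoded in the nucleus and the remaining few, which the rule leaves out, in mitochondrial DNA. Macrophages activated by LPS are known for a shift from respiration towards glycolysis and for the use of complexes I and II as sources of reactive oxygen species.

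Libraries held 8.64 to 13.54 M (1e6) counts, and the members together took 0.453% to 0.590% of the counts of an untreated library and 0.377% to 0.484% of those of an LPS-treated one. The 12 tested LPS target genes rose in both genotypes, with median log2 fold changes of 9.38 in WT and 9.25 in KO. Dot1l stood at 82.4, 111 and 111 counts per 1e6 (CPM) in untreated WT and at 97.8, 85.7 and 86.4 CPM in untreated KO, so the groups overlapped. With LPS it stood at 67.3, 69.2 and 60.6 CPM in WT and at 73.3, 65.3 and 70.2 CPM in KO, again with overlap. The deleted stretch of Dot1l was not known here, and a count over the whole transcript does not check the genotype labels. Lyz2 stood at 5730 to 7210 CPM in untreated WT and at 2620 to 3030 CPM in untreated KO, and with LPS at 6410 to 7980 CPM and 2970 to 3440 CPM, so the genotypes did not overlap in either condition. The 7 macrophage markers summed to 7410 to 14900 CPM. Markers of other cells were far lower: 13.3 to 48.7 CPM for neutrophils, 1.05 to 6.48 CPM for dendritic cells, at most 7.71 CPM for stromal cells and at most 0.796 CPM for lymphocytes, erythroid cells, mast cells and muscle. Hbb-bs, Hba-a1, Fcer1a, Myh6, Myh7 and Mb were at 0 in all libraries.

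Levels between genes were compared as RPKM, the authors' reads per kilobase of transcript and 1e6 reads, averaged over the 12 libraries. The most abundant member was Atp5b, the catalytic beta subunit of ATP synthase, at 266 RPKM. It was followed by Cox4i1, a regulatory subunit of complex IV, at 261 RPKM. Median levels were 81 RPKM for the 13 tested genes of complex IV and 78.2 RPKM for the 14 of ATP synthase. Complex II lay close to these, with a median of 71.8 RPKM and its 4 subunits between 59.4 RPKM (Sdhd) and 92.4 RPKM (Sdhc). Complex III had a median of 45.3 RPKM, led by Uqcrh, a hinge protein near cytochrome c1, at 94.7 RPKM. The 36 subunits of complex I had a median of 32.4 RPKM and ran from 1.32 RPKM for Ndufab1, the mitochondrial acyl carrier protein, to 103 RPKM for Ndufb8, a subunit of the membrane arm. The complex I assembly factors, which help to build the complex and are not part of it, stood lowest, with a median of 5.22 RPKM and none above the 8.4 RPKM of Ndufaf8.

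**Figure D1:**
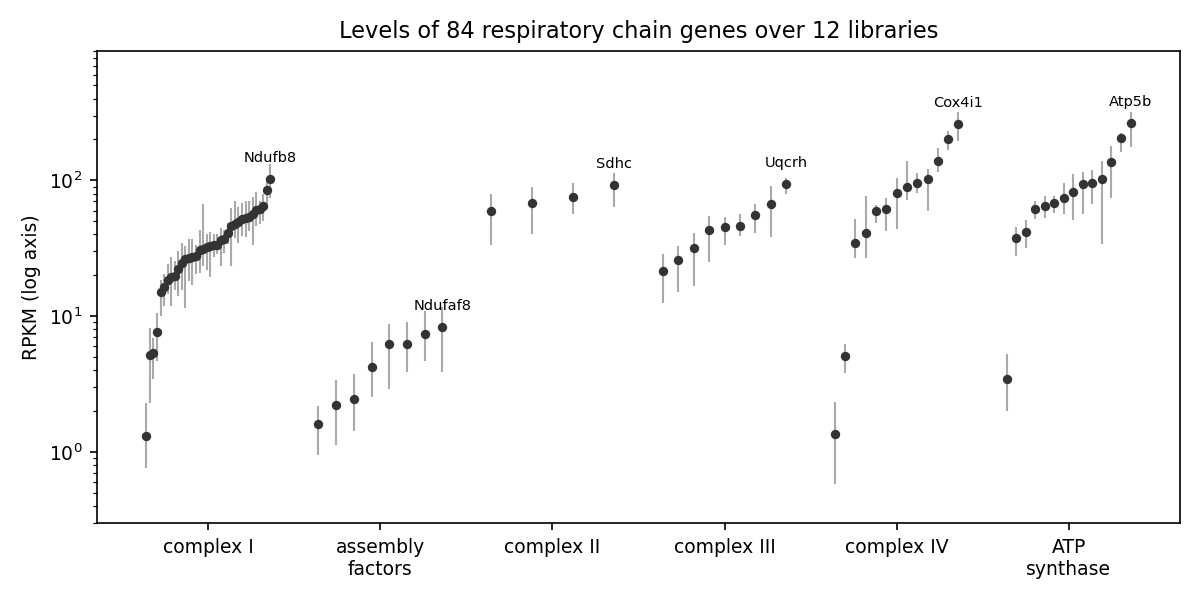
Level of each of the 84 tested members in RPKM on a log axis, by complex and in rising order within it. Points are means over 12 libraries and lines run from the lowest to the highest library. The assembly factors lie below all subunits of complexes II and III, and the most abundant member of each complex is named, up to Atp5b at 266 RPKM.

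Replicate spread did not separate the leading members. Atp5b stood at 276 ± 74.6 RPKM in untreated WT and 294 ± 21.9 RPKM in untreated KO (SD, n = 3 libraries), and at 233 ± 49.2 and 260 ± 15.8 RPKM with LPS. Cox4i1 stood at 262 ± 32.8 and 295 ± 20.2 RPKM untreated and at 230 ± 30.1 and 258 ± 5.47 RPKM with LPS, so the 2 genes lay within each other's spread in all 4 groups. Each mean is lower with LPS than without on this scale, which is set by the total of a library, and the LPS response is described further on under several scalings.

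Several subunits of complex IV have a widely expressed form and a form known from heart, muscle, lung or testis, and the widely expressed one carried nearly all RPKM in these cells. Cox4i2 made up 0% to 0.204% of the Cox4i1 and Cox4i2 total of a library, Cox6a2 0.383% to 2% of the Cox6a1 and Cox6a2 total, and Cox6b2 0% to 0.871% of the Cox6b1 and Cox6b2 total. Cox7b2, Cox8b and Cox8c were at 0 in all 12 libraries. Cox7a1, the heart and muscle form, was the exception at 5.63% to 11.2% of the Cox7a1 and Cox7a2 total. Ndufa4l2, a relative of the complex IV subunit Ndufa4 known from hypoxia, had 1 count in all libraries together.

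The 10 members that were not tested were Cox4i2, Cox6b2, Cox7b2, Cox8b, Cox8c, Ndufa4l2, Cox7c, Atp5g1, Atp5g2 and Atp5l. The last 4 encode widely expressed subunits: Cox7c a small subunit of complex IV, Atp5g1 and Atp5g2 the c-ring protein of ATP synthase, and Atp5l its g subunit. They had 42, 80, 22 and 21 counts over all libraries. Their sequences are not unique: 53.0% of the 50-base windows of Cox7c, 66.0% of those of Atp5g1, 87.4% of those of Atp5g2 and 84.8% of those of Atp5l also occurred in another GENCODE M21 gene on either strand. A low count of these 4 genes may not be a low level, since the sources used here do not say how reads that match several genes were counted. The same limit applies to tested members with few counts that share windows: Ndufs5 (41.2%), Atp5md (40.6%), Ndufb4 (37.0%) and Ndufab1 (12.3%, on 164 counts). Over all members, 45 shared no window, 17 shared under 10%, 25 shared 10% to under 50% and 7 at least 50%. The 7 had a median of 0.641 RPKM against 44.8 RPKM for those under 10%, and the tested ones among them were Ndufa12, Atp5h and Atp5o.

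Promoters were read from RefSeq (GRCm38.p6) as the 300 bases around each gene's start, and 76 of the 94 members were in that table. The letters GCGC, any base, then TGCGC, the core bound by NRF1, a known activator of respiratory chain genes, occurred on either strand in 19 of the 76 (25.0%) and in 5.19% of all 27025 promoters. The core of ETS factors such as GABP, CCGGAAGT, was found in 5 (6.58%, against 4.31% of all) and the ERR core, TCAAGGTCA, in 2 (2.63%, against 0.466%). A match is a description of letters and not a binding site. The 120 bases before the start are shown for 4 members with NRF1 letters, in capitals (a match on the opposite strand shows as its reverse complement). Their calls after LPS differ on the TMM scale used here. Cox6a1 and Atp5k are called higher in both genotypes (not so with total counts), Ndufaf4 is called lower, and Sdhd was not called. With the replicate number fitted as a block, Sdhd was called higher in edgeR (adjusted p = 0.0242 in WT and 0.000897 in KO). A difference in response between these genes was not tested.
Cox6a1, chr5:115348959-115349078, minus strand: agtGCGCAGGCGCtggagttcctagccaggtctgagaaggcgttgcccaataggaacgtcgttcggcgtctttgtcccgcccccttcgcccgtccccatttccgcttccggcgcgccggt
Atp5k, chr5:108434400-108434519, minus strand: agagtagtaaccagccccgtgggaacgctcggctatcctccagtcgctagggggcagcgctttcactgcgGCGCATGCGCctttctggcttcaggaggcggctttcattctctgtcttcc
Ndufaf4, chr4:24897963-24898082, plus strand: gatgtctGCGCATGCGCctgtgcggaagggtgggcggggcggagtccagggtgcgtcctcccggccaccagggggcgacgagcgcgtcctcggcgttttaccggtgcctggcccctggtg
Sdhd, chr9:50603850-50603969, minus strand: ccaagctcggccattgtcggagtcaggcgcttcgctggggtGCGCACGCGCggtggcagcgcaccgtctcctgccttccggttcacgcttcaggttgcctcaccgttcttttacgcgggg
The capitals begin 117 bases before the start in Cox6a1, 50 in Atp5k, 113 in Ndufaf4 and 79 in Sdhd. Of the 18 tested members with NRF1 letters, 6 were called higher and 1 lower after LPS in WT (median log2 fold change 0.22), and of the 51 without, 13 and 1 (median 0.25), on the TMM scale. In KO the counts were 5 and 1 with the letters (median 0.24) and 23 and 1 without (median 0.33). Of all genes, 27.6% were called higher and 29.8% lower in WT, and 30.3% and 30.9% in KO.

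Libraries labelled KO were compared with WT separately in each condition with edgeR's quasi-likelihood test, with TMM scaling and p-values adjusted over all genes. TMM sets libraries to a common level for the typical gene. A gene is called at an adjusted p below 0.05, and each ± that follows a log2 fold change is its standard error (3 libraries against 3). In untreated cells no member was called higher or lower, as was the case for all genes (0% and 0% of 11622). No member reached an unadjusted p below 0.05 either, against 841 of all genes. DESeq2 called 41 genes higher and 8 lower and limma-voom 0, with 0 members in either. Log2 fold changes of KO over WT had a median of 0.04 and ran from -0.71 to 0.29. The 3 KO libraries lay wholly above the 3 WT libraries for 1 member and wholly below for 5, which for all genes happened in 6.76% and 8.48%. With WT library 1 left out, 437 genes were called higher and 312 lower but still 0 members, whose median was then -0.05.

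The lowest value belonged to Ndufs6, an accessory subunit of complex I at its zinc site. Ndufs6 stood at 33.7, 14.7 and 14 CPM in untreated WT and at 13, 12.9 and 11.2 CPM in untreated KO. The KO libraries lay below WT, but 2 of the 3 WT libraries lay close to them and WT library 1 far above. The difference was -0.71 ± 0.32 (adjusted p = 0.708), and -0.19 without WT library 1 (adjusted p = 0.396).

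After LPS no member was called between genotypes, while 1% of all 11264 genes (113) were called higher and 0.124% (14) lower in KO. These all-gene counts moved with single libraries: they were 359 and 186 without WT library 1, 97 and 32 without WT library 2 and 19 and 1 without WT library 3. Without KO library 1, 2 or 3 they were 52 and 3, 60 and 1, and 16 and 1, and 0 members were called in each case. Of the 84 members, 8 had an unadjusted p below 0.05, against 1553 of all genes, and DESeq2 and limma-voom called 0 members. The median was 0.06, and it was -0.01 when libraries were scaled on short transcripts and -0.08 when scaled on cytosolic ribosomal protein genes. KO libraries lay wholly above WT for 14 members and wholly below for 4, against 11.1% and 9.17% of all genes. Complex III had the highest median of the complexes at 0.16, with Uqcrb at 0.41 ± 0.14 and Uqcr10 at 0.36 ± 0.13, both named after their values were seen. Complex IV had the lowest at -0.05 over its 13 tested genes, but 0.06 over the 10 left without tissue forms and related genes.

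The member nearest to a call was Ndufb9, an accessory subunit of the complex I membrane arm. Ndufb9 stood at 33.6, 34.8 and 36.2 CPM in WT with LPS and at 42.6, 41.5 and 44.6 CPM in KO with LPS. The groups did not overlap, and the untreated libraries of both genotypes lay between 30.8 and 36.7 CPM. The difference with LPS was 0.29 ± 0.09 (adjusted p = 0.181). The extremes were Ndufb4 at -0.56 ± 0.22 (adjusted p = 0.294) and Atp5e, the epsilon subunit of ATP synthase, at 0.58 ± 0.29 (adjusted p = 0.424). Atp5e stood at 20.8, 61.4 and 43.2 CPM in WT with LPS and at 60.2, 63.3 and 68 CPM in KO with LPS, so the groups overlapped and WT library 1 lay far below the rest.

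**Figure D2:**
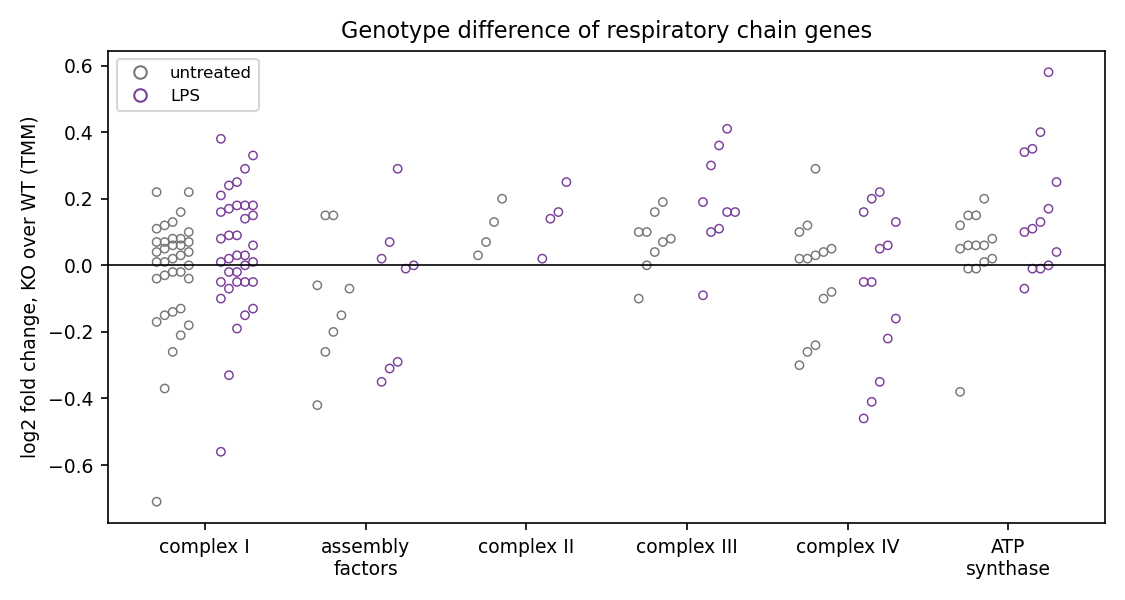
Log2 fold change of KO over WT for each of the 84 tested members on the TMM scale, by complex, untreated (grey) and with LPS (purple). All symbols are open because no member passed the test; values lie between -0.71 (Ndufs6, untreated) and 0.58 (Atp5e, LPS).

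The response to 3 hours of LPS was fitted on all 12 libraries as 4 groups. Relative to the typical gene, members stood higher after LPS in both genotypes: their median log2 fold change lay 0.29 to 0.30 above the median of all genes in WT and 0.36 to 0.37 above it in KO under each of 6 scalings. A scaling shifts all genes of a library alike, so this distance is set by the counts and its constancy is no added support. On log2(RPKM + 1) the distance was 0.17 in WT and 0.23 in KO. On the TMM scale, where the median of all genes was -0.05 in WT and -0.02 in KO, the members' medians were 0.25 and 0.34. When libraries were scaled to total counts the medians of all genes were -0.59 and -0.62 and those of the members -0.30 and -0.25. The sign of a member's LPS response therefore depends for most members on the scaling, and for many of them on whether total counts are included. Under all 6, 2 members stayed above 0 and 7 below 0 in WT, and 6 and 7 in KO. Without total counts, 47 stayed above 0 and 7 below 0 in WT, and 42 and 7 in KO. In bulk RNA, fewer cells of a type and less RNA per cell cannot be told apart, and these values are shares of the measured RNA.

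In WT, 23 members (27.4%) were called higher and 2 (2.38%) lower on the TMM scale, against 27.6% and 29.8% of all genes, while scaling to total counts turned this to 0 higher and 30 lower (14.4% and 63.6% of all genes). The share called higher was thus near the background and the share called lower below it. LPS libraries lay wholly above untreated ones for 26 members and wholly below for 2, against 27.6% and 30.2% of all genes. Among all genes, 48.1% of the calls were higher on the TMM scale and 18.4% with total counts. Without LPS-treated WT library 3, 15 members were called higher (3120 of all genes). Without LPS-treated WT library 1 it was 29 members (3210 of all genes).

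In KO, 37 members (44%) were called higher and 2 (2.38%) lower on the TMM scale, against 30.3% and 30.9% of all genes, while total counts gave 0 higher and 28 lower (14.8% and 65.3% of all genes). LPS libraries lay wholly above for 61 members and wholly below for 6, against 36.8% and 37.3% of all genes. Of all calls, 49.5% were higher on the TMM scale and 18.5% with total counts. Leaving out untreated KO library 1, 2 or 3 gave 21, 22 or 30 members called higher. Leaving out LPS-treated KO library 1, 2 or 3 gave 29, 25 or 24. Of all genes, 3280 to 3372 were called higher in these fits. The members called higher in both genotypes numbered 19, which is 82.6% of the WT and 51.4% of the KO calls, and the 2 lower ones were the same.

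Libraries with the same number deviated together between conditions, least clearly numbers 1 and 3 in KO. The replicate number was therefore also fitted as a block. With the block, 48 members were called higher and 2 lower in WT (32.9% and 35.1% of all genes) and 61 higher and 3 lower in KO (36.3% and 36.3%), with 43 higher in both, on the TMM scale.

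**Figure D3:**
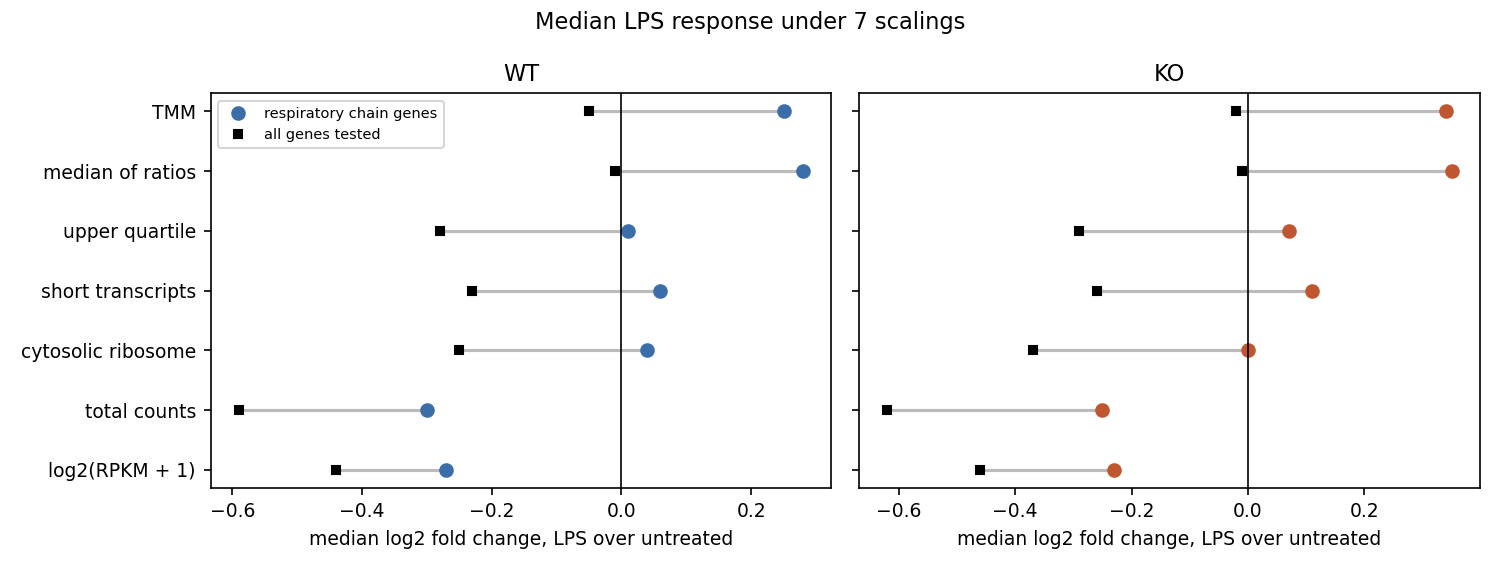
Median log2 fold change of LPS over untreated for the 84 tested members (circles) and for all genes tested (squares) in WT (left) and KO (right) under 7 scalings. A scaling shifts all genes alike, so the grey line between them keeps its length under the 6 count scalings (0.29 to 0.30 in WT, 0.36 to 0.37 in KO), and both ends move along the axis, from 0.25 with TMM to -0.30 with total counts for the members in WT.

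Scaling on 627 other short NM transcripts (under 1000 bases) gave 5 members higher and 5 lower in WT (20.2% and 39% of all genes). In KO it gave 7 higher and 6 lower (20.9% and 42.5%), and the member medians were 0.06 in WT and 0.11 in KO. Scaling on 66 cytosolic ribosomal protein genes gave 2 higher and 5 lower in WT (18.9% and 39.4%) and 2 higher and 8 lower in KO (17.6% and 48.2%), with medians of 0.04 and 0. The calls that held their direction in all 6 scalings were those of Ndufaf4 and Ndufaf7, lower in both genotypes, and no member was called higher in all 6.

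The transcripts of the members are short, with a median of 747 bases (287 to 3637), and other short transcripts also stood higher after LPS on the TMM scale. The 635 other tested NM transcripts under 1000 bases had median log2 fold changes of 0.15 in WT and 0.24 in KO. The 66 cytosolic ribosomal protein genes had 0.20 and 0.38. The length classes that follow also hold other genes without an NM transcript. Under 500 bases, the 17 members had medians of 0.26 and 0.43 and the 89 other genes 0.18 and 0.37, and in WT 11.8% of these members were called higher against 24.7% of the others (47.1% against 34.8% in KO). Within the class of 500 to under 1000 bases, the 35 members had medians of 0.25 and 0.37 and the 664 other genes 0.14 and 0.20. Within 1000 to under 2000 bases, the 24 members had medians of 0.20 and 0.31 and the 2589 other genes 0.01 and 0.05. The part of transcript length in the members' response was not tested beyond these values. In members that share under 10% of their windows with other genes, 15 of 56 were called higher in WT and 22 in KO, and in those sharing more, 8 and 15 of 28, against 27.6% of all genes in WT and 30.3% in KO.

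Libraries of a group differed in the level of the members as a whole. The median log2 deviation of the members from their mean over the 12 libraries was -0.38, -0.08 and -0.03 in untreated WT libraries 1 to 3 and -0.16, -0.19 and -0.03 in untreated KO on the TMM scale. It was -0.01, 0.15 and 0.16 in LPS-treated WT and 0.18, 0.19 and 0.22 in LPS-treated KO. WT library 1 was the lowest of its group in both conditions: it was lowest of 3 for 67.9% of the members untreated and for 63.1% with LPS, against 44.4% and 40% of all genes. Other short transcripts (-0.21 and 0.02) and ribosomal protein genes (-0.23 and -0.08) were also lowest there. For many single genes WT library 1 was instead the highest of 3. This held for 21 of the 84 members untreated and 15 with LPS, and for 5077 and 4758 of all 11984 genes. With WT library 1 left out in both conditions, 39 members were called higher and 2 lower in WT, and 59 and 4 in KO. Of all 12129 genes then tested, 3801 were called higher and 3619 lower in WT, and 4228 and 4413 in KO.

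**Figure D4:**
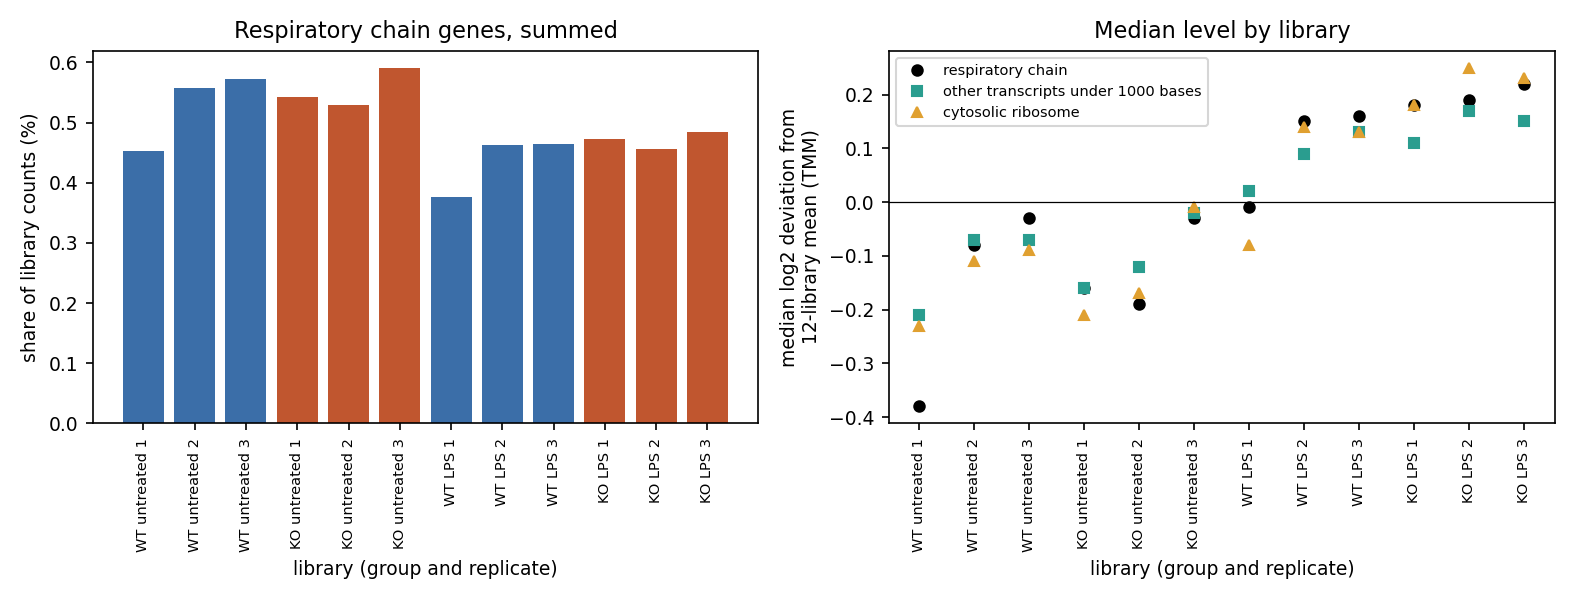
Left, share of each library's counts taken by all 94 members in percent (WT blue, KO orange). Right, median log2 deviation from the mean over 12 libraries on the TMM scale. It is shown for the members, other NM transcripts under 1000 bases and cytosolic ribosomal protein genes. The share of counts lies lower with LPS (0.377% to 0.484%) than without (0.453% to 0.590%), with some overlap, while the TMM medians lie higher, and the 3 gene groups follow each other from library to library.

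In complex I, 7 of 36 subunits were called higher in WT and 12 in KO on the TMM scale and none lower, against 27.6% and 30.3% of all genes called higher and 29.8% and 30.9% lower. The share called higher was below that of all genes in WT and near it in KO, and the medians were 0.20 and 0.32. The core subunits, which carry the redox centres and bind NADH, gave 2 and 3 of 7, and the accessory subunits 5 and 9 of 29.

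Ndufs4, an accessory subunit needed for stable complex I (GRCm38.p6 chr13:114287795-114388094), stood at 18.5, 28.6 and 22.9 CPM in untreated WT and at 30, 35.3 and 33.1 CPM with LPS. In KO it stood at 21.6, 23.4 and 24.6 CPM untreated and at 38.4, 34.3 and 36.6 CPM with LPS. The groups did not overlap in either genotype. Ndufs4 rose by 0.49 ± 0.14 in WT (adjusted p = 0.00758) and by 0.65 ± 0.13 in KO (adjusted p = 0.000835), against -0.06 and 0.06 with total counts. Ndufb8, the most abundant subunit of the complex by RPKM, was not called, at 0.25 ± 0.14 in WT (adjusted p = 0.137) and 0.16 ± 0.13 in KO (adjusted p = 0.308). With the replicate block its adjusted p were 0.00328 and 0.0356, and with total counts its values were -0.30 and -0.43.

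Near the threshold stood Ndufa3 and Ndufa2, small accessory subunits. Ndufa3 was called in both genotypes on the TMM scale, at 0.27 ± 0.11 in WT (adjusted p = 0.0478) and 0.32 ± 0.11 in KO (adjusted p = 0.0191), with -0.28 and -0.27 under total counts. The WT call of Ndufa3 ended when any of 7 libraries was left out: all 3 LPS-treated WT libraries (0.0537, 0.133 and 0.0843 for libraries 1 to 3), untreated WT libraries 1 (0.103) and 2 (0.0547), and LPS-treated KO libraries 1 (0.0574) and 3 (0.056). Ndufa2 missed the threshold in KO at 0.55 ± 0.23 (adjusted p = 0.0543), and passed it with the block (6.24e-06) or without untreated KO library 3 (0.0402), LPS-treated WT library 1 (0.0296), untreated WT library 1 (0.0117) or LPS-treated WT library 2 (0.0406). Its value was -0.04 with total counts.

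Of the assembly factors of complex I, 1 of 8 was called higher and 2 lower in WT, and 0 higher and 2 lower in KO, with medians of -0.11 and 0.17 on the TMM scale. The share called lower was near that of all genes (29.8% in WT and 30.9% in KO). The difference between these factors and the subunits was not tested. Ndufaf4 (chr4:24898083-24905001), a factor that helps to build the peripheral arm, stood at 9.68, 12.1 and 12.6 CPM in untreated WT and at 7.79, 7.68 and 8.87 CPM with LPS. In KO it stood at 11.3, 10.1 and 11.1 CPM untreated and at 7.43, 7.94 and 8.93 CPM with LPS. All LPS libraries lay below all untreated ones. Ndufaf4 fell by 0.50 ± 0.14 in WT (adjusted p = 0.00703) and by 0.42 ± 0.13 in KO (adjusted p = 0.0149), and the KO call ended without LPS-treated KO library 1 (adjusted p = 0.0651). Total counts gave -1.05 and -1.01.

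Ndufaf7, a methyltransferase that acts during assembly (chr17:78937106-78948052), was at 11.6, 13.7 and 12.8 CPM in untreated WT and at 9.59, 10.5 and 9.44 CPM with LPS. In KO it was at 11.6, 9.28 and 12 CPM untreated and at 7.96, 8.12 and 8.27 CPM with LPS, so that neither genotype's groups overlapped. Ndufaf7 fell by 0.37 ± 0.13 in WT (adjusted p = 0.0258) and by 0.43 ± 0.13 in KO (adjusted p = 0.00989), and total counts gave -0.92 and -1.03. The WT call ended without LPS-treated WT library 1 (0.062) or 3 (0.0809) or untreated WT library 2 (0.108) or 3 (0.069). Ndufaf5, which hydroxylates the core subunit Ndufs7, was the assembly factor called higher, in WT: 2.61, 5.48 and 4.13 CPM untreated and 5.54, 6.37 and 6.94 CPM with LPS. Its fold change was 0.61 ± 0.23 in WT (adjusted p = 0.0334) and 0.17 ± 0.22 in KO (adjusted p = 0.51), with 0.06 and -0.42 under total counts. The call of Ndufaf5 ended without untreated WT library 1 (0.0741) or 3 (0.0642) or LPS-treated WT library 2 (0.0736) or 3 (0.109).

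Complex II, succinate dehydrogenase, showed small differences. Sdha, the flavoprotein that oxidizes succinate, stood at 217, 229 and 234 CPM in untreated WT and at 241, 259 and 243 CPM with LPS, and in KO at 231, 231 and 240 CPM untreated and at 255, 246 and 257 CPM with LPS. The groups did not overlap, yet the change was only 0.13 ± 0.07 in WT (adjusted p = 0.13, or 0.0418 with the block) and 0.11 ± 0.07 in KO (adjusted p = 0.172, or 0.0634 with the block). Sdhb, the iron-sulfur subunit, stood at 67.6, 80.8 and 87.1 CPM in untreated WT and at 64.1, 78.4 and 75.2 CPM with LPS, with overlapping groups. The KO libraries held 84.3, 83.8 and 85.1 CPM untreated and 82.1, 80.5 and 79 CPM with LPS, without overlap. It lay below 0 under all 6 scalings, at -0.11 ± 0.10 in WT (adjusted p = 0.352) and -0.07 ± 0.10 in KO (adjusted p = 0.565) with TMM, and was called lower in both genotypes with total counts, upper quartile, short-transcript and ribosomal protein scaling. With total counts Sdha was called lower, at -0.42 and -0.48, and Sdhb stood at -0.66 in each genotype.

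Sdhc and Sdhd anchor complex II in the membrane. Sdhc stood at 112, 110 and 119 CPM in untreated KO and at 139, 130 and 139 CPM with LPS, with no overlap, and at 95.8, 121 and 122 against 111, 131 and 122 CPM in WT, with overlap. It rose in KO by 0.26 ± 0.10 (adjusted p = 0.0324) on the TMM scale, while total counts gave -0.33, and in WT it was at 0.10 ± 0.10 (adjusted p = 0.382). The KO call of Sdhc ended without LPS-treated KO library 1 (0.086) or 3 (0.0835) or without untreated KO library 1 (0.0926), 2 (0.121) or 3 (0.0514). Sdhd was at 0.17 ± 0.15 in WT (adjusted p = 0.346) and 0.25 ± 0.15 in KO (adjusted p = 0.162), and at 0.0242 and 0.000897 as adjusted p with the block.

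In complex III, 3 of 9 genes were called higher in WT and 7 in KO, with medians of 0.27 and 0.45 on the TMM scale, and none was called lower, against 27.6% and 30.3% of all genes called higher. The WT share was thus near that of all genes. The 3 called in both genotypes were Uqcrc1 and Uqcrc2, the large core proteins, and Uqcrh. Uqcrh (chr4:116066965-116075070) stood at 52.9, 43.9 and 45.6 CPM in untreated WT and at 63.8, 63.6 and 65.3 CPM with LPS, and in KO at 49.8, 49.9 and 50.7 CPM untreated and at 70.3, 72.8 and 72.9 CPM with LPS. All LPS libraries lay above all untreated ones, and WT library 1 was the highest of the untreated libraries for this gene. Uqcrh rose by 0.44 ± 0.08 in WT (adjusted p = 0.000309) and by 0.52 ± 0.08 in KO (adjusted p = 5.02e-05) on the TMM scale, against -0.11 and -0.07 with total counts. Cyc1, the cytochrome c1 that passes electrons to cytochrome c, was at 0.30 ± 0.25 in WT (adjusted p = 0.327) and 0.45 ± 0.24 in KO (adjusted p = 0.126), and at adjusted p of 0.00324 and 2.25e-05 with the block.

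Complex IV had 6 of 13 tested genes called higher in WT and 8 in KO on the TMM scale and none lower, against 27.6% and 30.3% of all genes called higher and 29.8% and 30.9% lower, with medians of 0.36 and 0.40. Cox4i1, the most abundant of them (chr8:120668225-120674209), stood at 167, 189 and 193 CPM in untreated WT and at 216, 251 and 238 CPM with LPS, and in KO at 186, 193 and 209 CPM untreated and at 254, 262 and 261 CPM with LPS. Its groups did not overlap. Cox4i1 rose by 0.36 ± 0.08 in WT (adjusted p = 0.00203) and by 0.40 ± 0.08 in KO (adjusted p = 0.000857) on the TMM scale, against -0.18 and -0.19 with total counts.

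Cox6a1, the widely expressed form of subunit 6a, whose promoter is printed above, stood at 61.5, 74.1 and 76.1 CPM in untreated WT and at 97.4, 92.3 and 102 CPM with LPS. In KO it stood at 66, 67 and 81.5 CPM untreated and at 94.4, 92.4 and 96.6 CPM with LPS, again without overlap. Cox6a1 rose by 0.46 ± 0.10 in WT (adjusted p = 0.00137) and by 0.40 ± 0.10 in KO (adjusted p = 0.00327), against -0.09 and -0.19 with total counts. Cox6b1, which sits between the monomers of the complex IV dimer, rose by 0.36 ± 0.08 (adjusted p = 0.00191) and 0.40 ± 0.08 (adjusted p = 0.000757), against -0.19 and -0.20 with total counts. Cox7b, needed for assembly of the complex, rose by 0.32 ± 0.07 (adjusted p = 0.00179) and 0.49 ± 0.07 (adjusted p = 4.7e-05), against -0.22 and -0.11 with total counts.

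Cox5a, which binds the matrix face of the complex, had the largest called change of complex IV on the TMM scale in both genotypes. It stood at 41.2, 68 and 76.5 CPM in untreated WT and at 64.1, 108 and 96.7 CPM with LPS, so the WT groups overlapped through library 1 with LPS. In KO it stood at 61.7, 60.2 and 74.2 CPM untreated and at 101, 105 and 106 CPM with LPS, without overlap. Cox5a rose by 0.54 ± 0.21 in WT (adjusted p = 0.0389) and by 0.67 ± 0.20 in KO (adjusted p = 0.0112), against -0.01 and 0.07 with total counts. The WT call ended without untreated WT library 1 (0.0964), LPS-treated WT library 2 (0.166) or 3 (0.11), or LPS-treated KO library 1 (0.0502), 2 (0.051) or 3 (0.0504).

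Among the small subunits, Cox8a rose by 0.48 ± 0.12 in WT (adjusted p = 0.00265) and by 0.28 ± 0.11 in KO (adjusted p = 0.0471) on the TMM scale, against -0.06 and -0.31 with total counts. The KO call of Cox8a ended when any of the 6 KO libraries or untreated WT library 2 or 3 was left out, with adjusted p of 0.0519 to 0.169. Cox7a2 rose in KO by 0.51 ± 0.12 (adjusted p = 0.00211), against -0.08 with total counts, and stood at 0.29 ± 0.12 in WT (adjusted p = 0.0594). Its WT value passed the threshold with the block (0.000813) or without LPS-treated WT library 1 (0.0164) or untreated WT library 3 (0.0223). Ndufa4 was at 0.25 ± 0.21 in WT (adjusted p = 0.336) and 0.43 ± 0.21 in KO (adjusted p = 0.0933), and at adjusted p of 0.00965 and 2.01e-05 with the block.

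The minor forms of complex IV were not called. Cox7a1 was at 0.48 ± 0.23 in WT (adjusted p = 0.0949) and 0.14 ± 0.23 in KO (adjusted p = 0.611), and Cox6a2 at 0.69 ± 0.47 (adjusted p = 0.233) and 0.02 ± 0.44 (adjusted p = 0.978). Cox7a2l, a gene related to Cox7a2, was at -0.01 ± 0.30 and 0.09 ± 0.29 (adjusted p = 0.982 and 0.81).

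Of ATP synthase, 6 of 14 tested genes were called higher in WT and 9 in KO on the TMM scale and none lower, against 27.6% and 30.3% of all genes called higher and 29.8% and 30.9% lower, with medians of 0.28 and 0.41. The peripheral stalk, which holds the catalytic head still, gave 4 of 4 in WT and 3 of 4 in KO. All 4 share windows with other genes (Atp5h 50.5%, Atp5o 50.3%, Atp5pb 38.7% and Atp5j 12.0%), so their counts are less certain. With total counts Atp5j was called lower in both genotypes and Atp5h lower in KO. The catalytic F1 part gave 1 and 3 of 5. Atp5b (chr10:128083307-128090388) stood at 357, 545 and 552 CPM in untreated WT and at 493, 673 and 635 CPM with LPS, so that library 1 with LPS overlapped the untreated libraries. In KO it stood at 496, 466 and 524 CPM untreated and at 675, 631 and 672 CPM with LPS, without overlap. Atp5b was at 0.31 ± 0.15 in WT (adjusted p = 0.0963, or 2.22e-05 with the block) and rose by 0.41 ± 0.15 in KO (adjusted p = 0.0288), against -0.24 and -0.18 with total counts. The KO call of Atp5b ended without LPS-treated KO library 1 (0.0728) or 3 (0.0715) or untreated KO library 1 (0.0739), 2 (0.106) or 3 (0.0515).

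Atp5k, the e subunit of the membrane part, whose promoter is printed above, stood at 22, 27.6 and 26.7 CPM in untreated WT and at 28.9, 32 and 40.3 CPM with LPS. In KO it stood at 27.8, 25.1 and 30.3 CPM untreated and at 36.8, 39.6 and 38.2 CPM with LPS. The groups did not overlap, and Atp5k rose by 0.41 ± 0.13 in WT (adjusted p = 0.0154) and by 0.46 ± 0.13 in KO (adjusted p = 0.0063) on the TMM scale, against -0.13 and -0.13 with total counts. Atp5k was chosen after its values were seen, for its promoter.

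Atp5md, a small protein that helps ATP synthase form dimers, had the largest called value of all members, 1.09 ± 0.37 in KO (adjusted p = 0.0212), on only 182 counts in all libraries. It stood at 0.808, 1.24 and 0.65 CPM in untreated KO and at 2.21, 2.22 and 1.22 CPM with LPS, and these groups overlapped. In WT it was at 0.28 ± 0.40 (adjusted p = 0.573). The KO call of Atp5md ended without LPS-treated KO library 1 (0.0808) or 2 (0.078) or untreated KO library 1 (0.0677) or 3 (0.0868). Atp5g3, the c-ring gene that was tested, was at 0.24 ± 0.23 in WT (adjusted p = 0.399) and 0.50 ± 0.23 in KO (adjusted p = 0.0705), and at adjusted p of 0.007 and 4.02e-06 with the block.

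**Figure D5:**
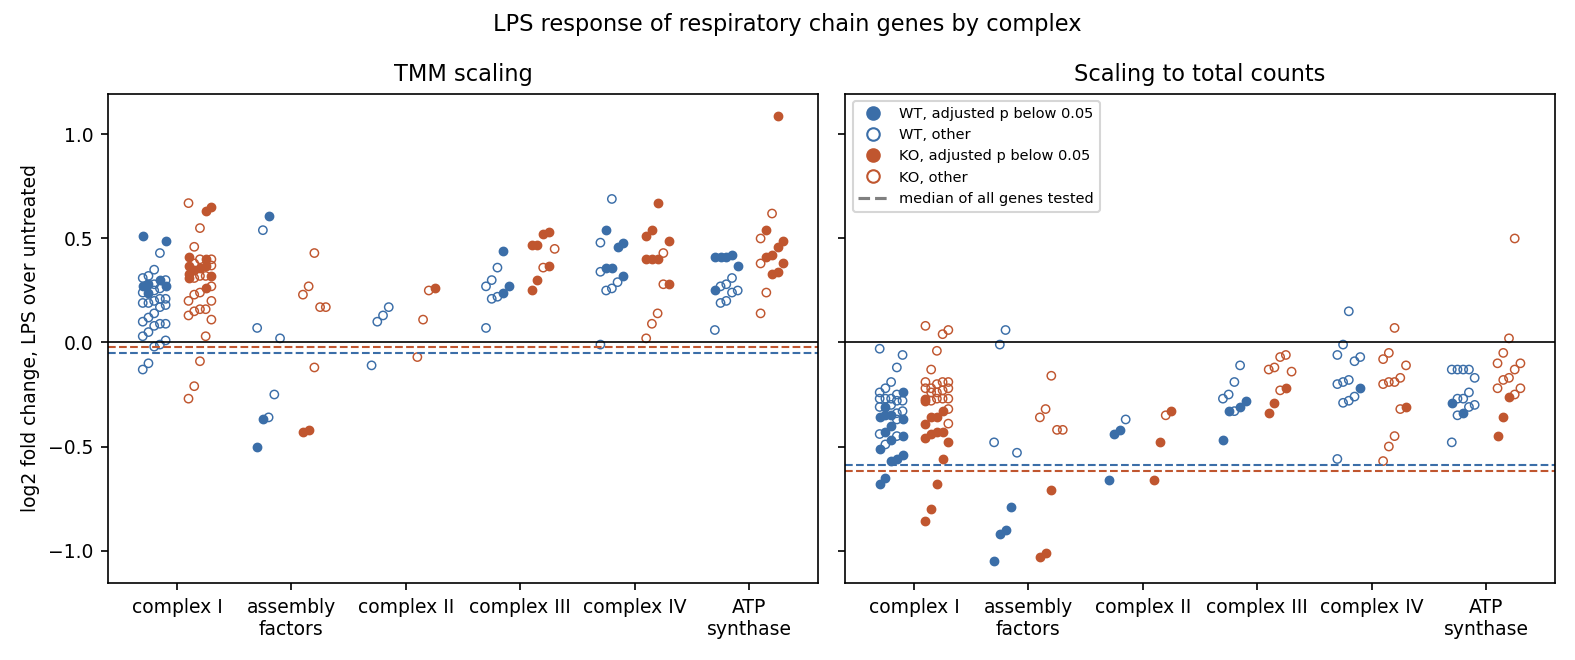
Log2 fold change of LPS over untreated for each of the 84 tested members by complex, WT (blue) and KO (orange), with TMM scaling (left) and scaling to total counts (right); filled symbols have an adjusted p below 0.05 and dashed lines are medians of all genes tested. Most members lie above the dashed lines in both panels, but called members lie mostly above 0 on the left (23 and 37 higher) and all below 0 on the right (30 and 28 lower).

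The counts of called members differed between the genotypes, but the difference between their LPS responses was not detected. The genotype by LPS interaction was called for no member and for no gene (0% and 0% of 11984, smallest adjusted p = 1 in edgeR), and DESeq2 and limma-voom called 0 members. An unadjusted p below 0.05 was reached by 2 members and 288 of all genes. The 2 were Ndufb4 at -0.69 ± 0.28 and Ndufb9 at 0.29 ± 0.13, both named after their values were seen. The members' median was 0.10, with 65 of 84 above 0, against 0.02 and 6561 of 11984 for all genes, and it was -0.05 with 32 above 0 when scaled on cytosolic ribosomal protein genes. It was 0, with 42 of 85 above 0, without untreated WT library 3, and 0.03 without LPS-treated WT library 1 or untreated WT library 2. Without untreated KO library 1 or 2 it was 0.06 or 0.04.

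Genes that control or accompany the respiratory chain were described from lists of known genes, on the TMM scale, where 27.6% of all genes were called higher and 29.8% lower in WT and 30.3% and 30.9% in KO. Of 14 tested regulators of mitochondrial genes, 4 were called higher and 6 lower after LPS in WT, and 6 and 6 in KO. Ppargc1b, a coactivator of mitochondrial gene expression, stood at 1.83 to 2.87 CPM in the 6 untreated libraries and at 10.7 to 21.7 CPM in the 6 with LPS, and rose by 2.78 ± 0.25 in WT (adjusted p = 4.24e-07) and by 2.73 ± 0.24 in KO (adjusted p = 2.87e-07). Nrf1, whose protein binds the letters searched in the promoters, stood at 19.2 to 23.2 CPM untreated and at 28.6 to 35.2 CPM with LPS. Nrf1 rose by 0.57 ± 0.10 (adjusted p = 0.000194) and 0.80 ± 0.10 (adjusted p = 6.75e-06). With total counts the median of all genes moved from -0.05 to -0.59 in WT and from -0.02 to -0.62 in KO. A scaling shifts all genes alike, and the WT rise of Nrf1 is about the size of that shift. Gabpb1, the beta partner of the ETS factor GABP, rose by 0.95 ± 0.09 and 1.13 ± 0.09, and the coactivator Pprc1 by 0.52 ± 0.11 and 0.59 ± 0.11, although Pprc1 stood at -0.03 and 0 with total counts.

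Tfam, the packaging factor of mitochondrial DNA, rose in KO by 0.41 ± 0.10 (adjusted p = 0.00376), against -0.19 with total counts, and was at 0.25 ± 0.11 in WT (adjusted p = 0.0568). Gabpa was at 0.34 ± 0.15 and 0.33 ± 0.15 (adjusted p = 0.0759 and 0.0739). Esrra, the receptor that binds the ERR core, was at 0.30 ± 0.15 in WT (adjusted p = 0.0973) and 0.36 ± 0.14 in KO (adjusted p = 0.0442), with -0.24 in KO under total counts, and its KO call ended when any of the 6 KO libraries, untreated WT library 2 or LPS-treated WT library 3 was left out (adjusted p of 0.0546 to 0.163). Twnk, the helicase of mitochondrial DNA, fell by 2.92 ± 0.22 in WT and by 2.66 ± 0.19 in KO, and Myc, a regulator of growth, by 2.58 ± 0.12 and 2.98 ± 0.13. Ppargc1a had too few counts to be tested.

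Of 35 assembly factors outside the symbol rule, 7 were called higher and 10 lower in WT, and 10 and 8 in KO, against 27.6% and 29.8% of all genes in WT and 30.3% and 30.9% in KO. Sco1, a copper chaperone of complex IV, rose by 1.68 ± 0.12 and 1.74 ± 0.12, Coa5 by 1.02 ± 0.08 and 1.11 ± 0.08, and the copper carrier Cox17 by 0.94 ± 0.09 and 1.09 ± 0.09. The complex I factors Tmem186 and Tmem126b fell by 1.55 ± 0.16 and 1.15 ± 0.17 in WT and by 1.77 ± 0.16 and 1.08 ± 0.16 in KO. Of 18 genes of the tricarboxylic acid cycle and pyruvate dehydrogenase, 5 were called higher, a share near that of all genes, and 0 lower in each genotype, with Dld, the shared lipoamide dehydrogenase, at 0.64 ± 0.09 and 0.75 ± 0.09.

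Cycs, the cytochrome c between complexes III and IV, rose by 0.83 ± 0.31 in WT (adjusted p = 0.0342) and by 1.51 ± 0.31 in KO (adjusted p = 0.000758). Its WT call ended without LPS-treated WT library 1 (0.0627), 2 (0.0601) or 3 (0.0856) or untreated WT library 1 (0.0745). The list of carriers and channels to which Cycs belongs had 2 of 11 called higher and 0 lower in WT, and 3 and 1 in KO. The mitochondrial ribosome, whose proteins translate the subunits encoded in mitochondrial DNA, had 14 of 76 genes called higher and 8 lower in WT and 21 and 9 in KO, with medians of 0.08 and 0.14. Of all genes, 27.6% were called higher and 29.8% lower in WT, and 30.3% and 30.9% in KO.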

How the data were processed

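Polyadenylated RNA of 12 macrophage libraries was sequenced from single 50 bp ends. Per the submitters' processing notes, reads were processed against mm10 with STAR 2.5.2b and SAMtools 1.3.1; the sources used here do not name the counting tool, its strand setting or its treatment of reads with several matches. The authors deposited whole-number counts and RPKM values per RefSeq transcript, in separate tables for untreated and LPS-treated libraries. For each gene the transcript with the most counts was kept, and 117 transcripts without a gene name (0.259% to 0.738% of the counts of a library) were left out. Counts were filtered with filterByExpr, scaled by TMM over the libraries of a fit and tested with edgeR 4.0.16 (quasi-likelihood, robust; R 4.3.3, limma 3.58.1, DESeq2 1.42.0) with Benjamini-Hochberg adjustment over all genes and a threshold of 0.05. Adjusted p without another tool's name are from this test. Genotypes were compared on the 6 libraries of a condition, LPS responses and the interaction on all 12. CPM values are on 1 TMM scale over 12 libraries. Standard errors are approximate and were derived from the F statistics.

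Members and lists were chosen with earlier results of these data known. Named members were the 4 largest called changes in each direction, the most abundant of each complex, the succinate dehydrogenase subunits, isoform sets and those next to the threshold; from the other lists, up to 3 called genes per direction and the main regulators. A gene that this rule would name is not reported here. Other scalings, tests, filters, transcripts and left-out libraries were run as alternatives. Same-numbered libraries deviated together between conditions (r of 0.50, 0.50 and 0.25 in WT and 0.22, 0.43 and 0.18 in KO, across genes). Between different numbers r ran from -0.45 to 0.07 in WT and from -0.30 to 0.14 in KO. KO numbers 1 and 3 reached 0.14 and 0.13 with each other, near their same-number values, so their pairing is weakly supported. The pairing for the block comes from these values and the labels do not state it. Depth of 8.64 to 13.54 M counts puts 3 counts at 0.222 to 0.347 per 1e6 total counts, without TMM factors and for counting error only. The fitting code was tested on simulated data.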

Additional observations from a re-analysis of the deposited data

How the results depend on the processing

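No member was called between the genotypes, or for the interaction, under any alternative run. The LPS response moved with the choices made. With total counts 0 members were called higher and 30 lower in WT (14.4% and 63.6% of all genes), and 0 and 28 in KO (14.8% and 65.3%). Upper quartile scaling gave 2 and 8 in WT and 5 and 6 in KO. Of all 11984 genes it called 2391 higher and 5159 lower in WT, and 2520 and 5418 in KO. Short transcripts gave 5 and 5 in WT (20.2% and 39% of all genes) and 7 and 6 in KO (20.9% and 42.5%). Ribosomal protein genes gave 2 and 5 in WT (18.9% and 39.4%) and 2 and 8 in KO (17.6% and 48.2%). Limma on log2(RPKM + 1) and on log2(RPKM + 0.1) both gave 0 and 28 in WT and 0 and 25 in KO. Of all genes the first called 1704 and 7549 in WT and 1763 and 7680 in KO. The second called 1713 and 7563 in WT and 1751 and 7624 in KO. DESeq2 called 29 members higher and 1 lower in WT, against 3485 and 3345 of all genes. Leaving out 1 library gave 15 to 29 higher and 1 to 2 lower in WT and 21 to 48 and 1 to 4 in KO. Of all genes these fits called 3120 to 3723 higher and 3200 to 3695 lower in WT. In KO they called 3280 to 3911 and 3318 to 4167. The arm with 2 libraries was assumed to vary like the others. The KO count of 48 came without untreated WT library 1, with 4 lower. Without WT number 1 in both conditions the counts were 39 and 2 in WT and 59 and 4 in KO. Of all genes, 3801 and 3619 were then called in WT and 4228 and 4413 in KO. Without number 2 in every group 14 and 0 members were called in WT and 11 and 1 in KO. The counts of all genes were 2689 and 2737 in WT and 2907 and 2877 in KO. A fit on the 6 libraries of a genotype gave 15 and 1 in WT and 60 and 3 in KO. For all genes it gave 2793 and 2908 in WT and 4152 and 4310 in KO. The cause of these shifts was not tested. Fits without libraries have fewer samples.

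With the replicate number as a block, 48 members were called higher in WT (32.9% of all genes) and 61 in KO (36.3%). Between genotypes same-numbered libraries did not all deviate together (r of 0.08, 0.23 and 0.22 untreated and -0.01, 0.20 and 0.11 with LPS), and the block called 0 members in both conditions.

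Named genes turned sign with total counts and with limma on log2(RPKM + 1) and log2(RPKM + 0.1), the log2 fold changes being, in WT, Cox4i1 -0.18 and -0.19, Cox5a -0.01 and 0, Cox6a1 -0.09 and -0.08, Cox6b1 -0.19 and -0.20, Cox7a2 -0.26 and -0.25, Cox7b -0.22 and -0.23, Cox8a -0.06, -0.07, -0.08, Ndufa3 -0.28 and -0.27, Ndufs4 -0.06 and -0.04, Uqcrh -0.11, Pprc1 -0.03 and -0.02, and in KO, Atp5b -0.18 and -0.17, Cox4i1 -0.19, Cox6a1 -0.19 and -0.18, Cox6b1 -0.20 and -0.19, Cox7a2 -0.08 and -0.07, Cox7b -0.11 and -0.10, Cox8a -0.31, Ndufa2 -0.04 and -0.02, Sdhc -0.33, Uqcrh -0.07, Esrra -0.24, -0.21, -0.23, Tfam -0.19, -0.16, -0.18, Pprc1 0. In KO, scaling on ribosomal protein genes gave Cox8a -0.06 and Sdhc -0.09, and upper quartile scaling gave Sdhc -0.01. Total counts and RPKM share a scaling to library totals, under which the median of all genes stood at -0.59 in WT and -0.62 in KO with total counts.

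The limits bear on scale and on sequence. The sign of most LPS responses rests on what is held constant between conditions, as the medians of 0.25 with TMM and -0.30 with total counts in WT show. The untreated and LPS-treated libraries were deposited in separate tables. Of the members, 7 share at least 50% of their windows with other genes, and their counts are uncertain. Members near 1 CPM, such as Atp5md with 182 counts, are limited by depth.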
